A study of Mus musculus with 4 samples.

Results

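Oligodendrocytes of the adult mouse hypothalamus were described here as the nuclei that the deposited annotation assigns to the main cluster of that name. They numbered 6135 of 56386 annotated nuclei. The study sequenced nuclei of whole hypothalami on the 10x Genomics platform and compared wild-type males with males heterozygous for TRα1+m, a point mutation of the thyroid hormone receptor α1, both on the C57/BL6NCr background. Each library pooled 3 mice, and both genotypes were run in each of 2 independent repeats, giving 4 libraries from 12 mice. The library was therefore the replicate (n = 2 per genotype), individual mice could not be separated, and the mutation was present in every cell of the mutant mice rather than in oligodendrocytes alone. Exact ages were not given in the sources used here. The wild-type libraries of repeats 1 and 2 held 1641 and 1396 oligodendrocyte nuclei, and the TRα1+m libraries held 1685 and 1413.

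Oligodendrocytes wrap axons of the central nervous system in myelin, a lipid-rich membrane built from proteins such as Mbp, and they arise from oligodendrocyte precursor cells (OPCs). Thyroid hormone is a classical signal for the step from dividing precursor to myelinating cell. It acts through nuclear receptors encoded by Thra and Thrb, which sit on DNA with retinoid X receptors and recruit corepressors in the absence of hormone and coactivators in its presence. The TRα1+m receptor binds the hormone poorly, and the mice are a model of receptor-mediated hypothyroidism. The comparison asked which transcripts of these nuclei depend on the genotype.

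The label was read beside Mag, Mobp and Mog, which encode components of the myelin sheath. The study named the cluster from markers in these same counts, Mag and Mobp among them, so that their presence is a description and no independent check. A Mog UMI, that is a counted RNA molecule, was found in 62.3% (repeat 1) and 82.5% (repeat 2) of oligodendrocyte nuclei from wild-type mice. The shares from TRα1+m mice were 55.4% and 80.8%. Median depths of the libraries were 1493, 1811.5, 1516 and 1663 UMIs per nucleus in the same order. In the large neuronal cluster Neurons_1, which should lack the transcript, the shares were 4.37%, 4.39%, 3.32% and 2.81% at medians of 3797 to 5227 UMIs per nucleus. Mobp was found in 66.9%, 72.4%, 65.3% and 71.8% of oligodendrocyte nuclei. Its shares in Neurons_1 were higher than those of Mog, at 18.8%, 20.2%, 16.2% and 14.9%, while those of Mag were 3.90% to 5.81%. At least 2 of the 3 markers were detected in 70.1% and 88.8% of the wild-type nuclei, and in 64.2% and 88.0% of those from the mutant.

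Summed over oligodendrocyte nuclei, the wild-type libraries held 2592009 and 2713480 UMIs and the mutant libraries 2705884 and 2525236. Of the barcodes, 2 were shared between oligodendrocyte nuclei of different libraries. Levels are given below as CPM, the counts of a gene scaled to a common total of UMIs, scaled with TMM factors unless stated otherwise, for wild-type repeat 1, wild-type repeat 2, TRα1+m repeat 1 and TRα1+m repeat 2 in that order.

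The repeats stood apart in both genotypes, among others in myelin genes. Mal, which encodes a myelin proteolipid of membrane rafts, was at 449 and 1735 CPM in wild type and at 380 and 2710 CPM in TRα1+m. Cldn11, the tight-junction protein of the myelin sheath, was at 405 and 1375 CPM in wild type and at 371 and 1638 CPM in the mutant. Both were higher in repeat 2, and the genotypes overlapped. Of 26 myelin genes tested, 22 were higher in repeat 2 in both genotypes, beside 33.98% of all genes tested, with a median log2 difference of 0.78 in wild type and 1.16 in TRα1+m. Because each repeat holds a library of each genotype, genotype differences were fitted without the repeat and again with it as a block; the blocked fit has 1 residual degree of freedom.

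**Figure D1:**
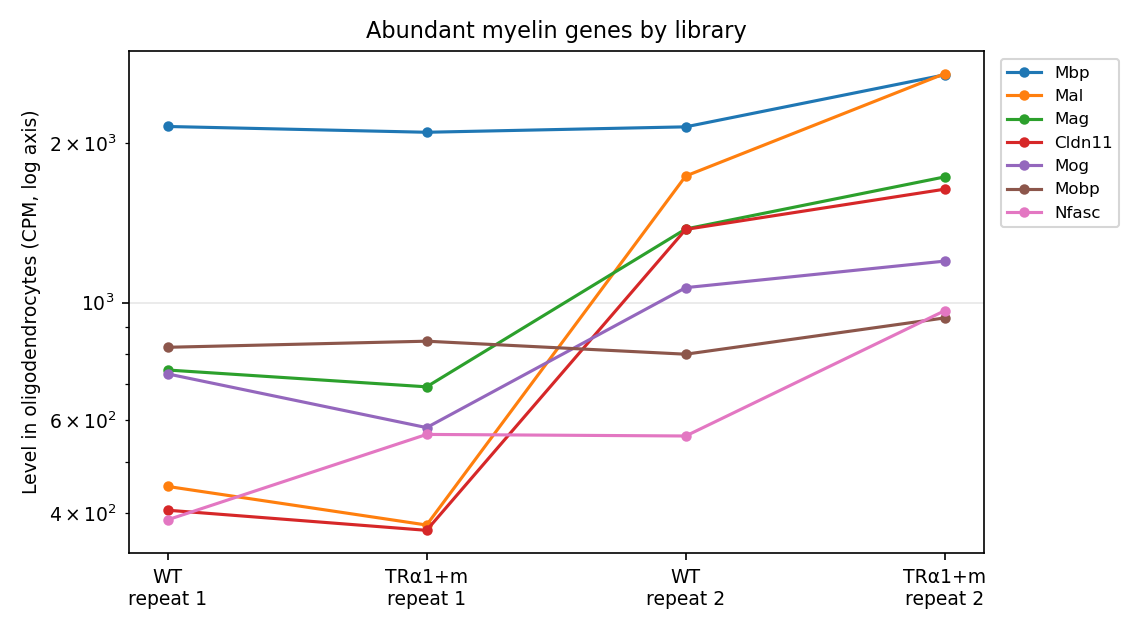
Level of 7 abundant myelin genes in oligodendrocytes (vertical axis, CPM, logarithmic) in each of the 4 libraries (horizontal axis, ordered by repeat). Each line is a gene; Mal and Cldn11 lie near 400 CPM in both repeat 1 libraries and between 1375 and 2710 CPM in both repeat 2 libraries, while Mobp stays between 798 and 935 CPM.

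Between the genotypes, 13 of 12630 genes tested (0.103%) passed an adjusted p of 0.05 in edgeR's quasi-likelihood test with Benjamini-Hochberg adjustment. In TRα1+m, 5 genes (0.0396%) were higher and 8 (0.0633%) were lower, with folds from 3.22 to 29.5. The higher genes were Col23a1, Ccnd3, Ddc, Arhgap15 and Fbn2, and the lower genes were Pcolce2, Tmem117, Cacna2d4, Dpyd, Slco3a1, Kcna1, Gm44866 and Etv1. With the repeat as a block 270 genes (2.14%) were higher and 280 (2.22%) lower, and these included all 13. Without wild-type repeat 2 no gene passed (312 of 13222 had an unadjusted p under 0.05), and without wild-type repeat 1 only 6 did, of which 4 (Dpyd, Pcolce2, Col23a1 and Tmem117) were among the 13. Without TRα1+m repeat 1 the count was 196, and without TRα1+m repeat 2 it was 59, each including all 13. In each of these 4 fits with a library left out the 13 genes kept their direction. As none of the 13 overlapped between genotypes, this was all but fixed in advance and is no further support.

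The largest rise was that of Col23a1 (ENSMUSG00000063564, GRCm38 chr11:51289920-51583918), which encodes a transmembrane collagen. Its level was 11.2 and 10.7 CPM in wild type and 161 and 176 CPM in TRα1+m, which rested on 29, 30, 428 and 426 UMIs. Both mutant libraries lay far above both wild-type libraries, and the log2 fold change was 3.94 ± 0.19 (SE; adjusted p = 0.00702). Fbn2 (ENSMUSG00000024598, chr18:58008623-58210487), the microfibril protein fibrillin 2, was at 81.7 and 83.3 CPM in wild type and at 269 and 262 CPM in the mutant, a log2 fold change of 1.69 ± 0.16 (adjusted p = 0.0462). Replicates of Fbn2 differed by little within a genotype, and the genotypes did not overlap.

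Ccnd3 (ENSMUSG00000034165, chr17:47505051-47599691) encodes cyclin D3, a regulatory subunit of the kinases that drive cells into the cycle. It was at 40.7 and 38.1 CPM in wild type and at 216 and 264 CPM in TRα1+m (log2 fold change 2.61 ± 0.19, adjusted p = 0.0119). Ddc (ENSMUSG00000020182, chr11:11814101-11898144), the aromatic amino acid decarboxylase of monoamine synthesis, rose from 48.8 and 45.9 CPM to 239 and 269 CPM (2.42 ± 0.18, adjusted p = 0.0119). Arhgap15 (ENSMUSG00000049744, chr2:43748824-44395953), which encodes an inactivator of Rac GTPases, rose from 34.5 and 29.9 CPM to 154 and 177 CPM (2.36 ± 0.19, adjusted p = 0.0166). In all 3 genes both mutant libraries lay above both wild-type libraries. Ccnd3 overlaps Bysl, Arhgap15 overlaps Arhgap15os, and Ddc overlaps 1700042O10Rik, each on the opposite strand. Of the lower genes described next, Tmem117 overlaps Nell2, Pcolce2 overlaps Gm16126 and Gm16127, Slco3a1 overlaps Gm7580 and Cacna2d4 overlaps Lrtm2 on the opposite strand, and Dpyd overlaps Gm43410 on its own strand; Fbn2 overlaps Gm26507 on the opposite strand. Whether counting used the strand was not given in the sources used here.

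Among the lower genes, Pcolce2 (ENSMUSG00000015354, chr9:95637601-95698096), an enhancer of procollagen processing, was almost lost. It was at 84.1 and 128 CPM in wild type and at 3.02 and 4.13 CPM in the mutant, where only 8 and 10 UMIs remained (log2 fold change -4.88 ± 0.35, adjusted p = 0.0119). Tmem117 (ENSMUSG00000063296, chr15:94629232-95096098), which encodes a membrane protein, was at 291 and 358 CPM in wild type against 27.1 and 34.7 CPM (-3.39 ± 0.22, adjusted p = 0.0119). In both genes the mutant libraries resembled each other and lay below both wild-type libraries.

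Dpyd (ENSMUSG00000033308, chr3:118562129-119432924), the first enzyme of pyrimidine breakdown, was at 273 and 354 CPM in wild type and at 37.3 and 42.9 CPM in TRα1+m (log2 fold change -2.97 ± 0.22, adjusted p = 0.0119). Slco3a1 (ENSMUSG00000025790, chr7:74275419-74554780), an organic anion transporter, was at 242 and 255 CPM in wild type and at 41.5 and 43.7 CPM in the mutant (-2.54 ± 0.17, adjusted p = 0.0119). Both rested on at least 624 UMIs in each wild-type library, and neither overlapped between genotypes.

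Kcna1 (ENSMUSG00000047976, chr6:126640397-126646384), a voltage-gated potassium channel subunit, was at 208 and 159 CPM in wild type and at 43.3 and 34.7 CPM in TRα1+m (log2 fold change -2.23 ± 0.22, adjusted p = 0.0462). Cacna2d4 (ENSMUSG00000041460, chr6:119236526-119352407), an auxiliary calcium channel subunit, was sparse, at 22.9 and 22.8 CPM against 2.26 and 2.06 CPM, which were 6 and 5 UMIs in the mutant (-3.37 ± 0.35, adjusted p = 0.0487). Etv1 (ENSMUSG00000004151, chr12:38779380-38870484), an ETS transcription factor, fell from 79.0 and 68.7 CPM to 17.7 and 16.1 CPM (-2.12 ± 0.21, adjusted p = 0.0480). The noncoding RNA Gm44866 (ENSMUSG00000109233, chr7:119720811-119735760) fell from 120 and 95.8 CPM to 24.9 and 23.5 CPM (-2.15 ± 0.21, adjusted p = 0.0462). None of these 4 genes overlapped between genotypes.

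**Figure D2:**
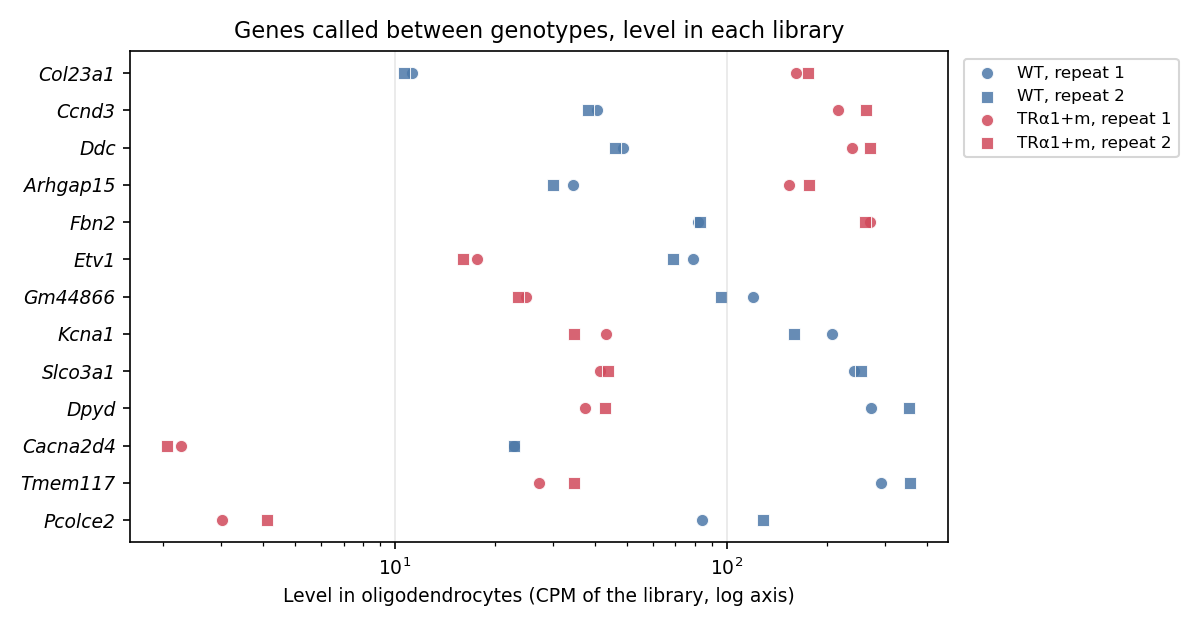
Level in each library (horizontal axis, CPM, logarithmic; circles repeat 1, squares repeat 2; blue wild type, red TRα1+m) of the 13 genes called between genotypes (vertical axis, ordered by log2 fold change). For every gene the 2 libraries of a genotype lie close together and the genotypes do not overlap, from Col23a1 at 11.2 and 10.7 against 161 and 176 CPM to Pcolce2 at 84.1 and 128 against 3.02 and 4.13 CPM.

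Of all genes tested, 672 of 12630 had an unadjusted p under 0.05. Beyond the called genes, 454 had such a p, a mean level of at least 20 CPM and no overlap between genotypes, and the 11 of these with the largest log2 fold changes are described here, although they missed the adjusted threshold. Hcn2, the hyperpolarization-activated channel, stood at 130 and 293 CPM in wild type and at 24.9 and 20.6 CPM in TRα1+m (log2 fold change -3.21 ± 0.44, adjusted p = 0.145, 3.39e-10 with the repeat as a block). Its wild-type libraries differed from each other, while the mutant libraries were both low. Myrip, which links melanosomes and secretory vesicles to myosin, was at 13.2 and 7.83 CPM against 72.7 and 107 CPM (3.10 ± 0.34, adjusted p = 0.0587, 4.93e-18 with the block). The antisense transcript 1700042O10Rik, inside Ddc, was at 38.7 and 18.5 CPM against 271 and 140 CPM (2.85 ± 0.48, adjusted p = 0.224). Piezo2, a mechanically gated channel, was at 12.01 and 17.8 CPM against 42.6 and 82.1 CPM (2.05 ± 0.39, adjusted p = 0.232). The other 7 were A530053G22Rik, Adamtsl4 and Slc7a15, with lower values in the mutant, and Gm48163, Serpind1, Cyp2d22 and Tcf7l1, with higher values, at absolute log2 fold changes of 2.05 to 4.40. The sizes of several of the 11 changed when a single library was left out, some becoming larger and some smaller. With all libraries the log2 fold change was 2.67 for Serpind1, 2.38 for Cyp2d22, -2.16 for Slc7a15 and -4.40 for A530053G22Rik. Without TRα1+m repeat 2 the log2 fold change was 1.46 for Serpind1 (3.55 without wild-type repeat 2 and 3.32 without TRα1+m repeat 1), 1.43 for Cyp2d22, -2.76 for Slc7a15 and -5.01 for A530053G22Rik. Without wild-type repeat 2 it was -3.37 for A530053G22Rik and -2.50 for Hcn2, and without wild-type repeat 1 it was 3.47 for 1700042O10Rik. With the repeat as a block all 11 had an adjusted p below 0.05 in edgeR, the largest being 1.45e-07 for Cyp2d22. Over all genes tested, 2.14% were higher and 2.22% lower with the block. The 11 were chosen for their differences in these same libraries, so passing a second fit is no independent support.

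The promoters of these genes are shown because thyroid hormone receptors bind the hexamer AGGTCA, usually as pairs. For 8 of the 13 called genes the RefSeq promoter table (GRCm38.p6) held an entry, with the 250 bases before the annotated start. Capitals mark AGGTCA or its reverse complement TGACCT, searched on both strands; each sequence reads 5′ to 3′ along the gene. The windows of the 4 higher genes in the table each held a match:
Col23a1, chr11:51289670-51289919, plus strand: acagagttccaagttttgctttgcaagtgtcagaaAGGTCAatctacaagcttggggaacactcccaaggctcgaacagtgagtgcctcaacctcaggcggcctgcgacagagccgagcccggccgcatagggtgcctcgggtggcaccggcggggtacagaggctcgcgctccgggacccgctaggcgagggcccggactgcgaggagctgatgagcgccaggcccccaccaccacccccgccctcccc
Ddc, chr11:11898145-11898394, minus strand: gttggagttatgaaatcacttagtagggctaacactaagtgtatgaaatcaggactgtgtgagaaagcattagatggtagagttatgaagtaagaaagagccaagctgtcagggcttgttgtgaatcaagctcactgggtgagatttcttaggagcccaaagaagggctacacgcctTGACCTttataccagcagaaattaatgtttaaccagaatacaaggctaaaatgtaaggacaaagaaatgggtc
Ccnd3, chr17:47504801-47505050, plus strand: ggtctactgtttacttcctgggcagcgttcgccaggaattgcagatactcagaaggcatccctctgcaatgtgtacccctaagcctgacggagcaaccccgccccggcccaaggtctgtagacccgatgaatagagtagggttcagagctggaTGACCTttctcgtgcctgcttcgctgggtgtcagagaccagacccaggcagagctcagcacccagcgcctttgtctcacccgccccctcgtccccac
Arhgap15, chr2:43748574-43748823, plus strand: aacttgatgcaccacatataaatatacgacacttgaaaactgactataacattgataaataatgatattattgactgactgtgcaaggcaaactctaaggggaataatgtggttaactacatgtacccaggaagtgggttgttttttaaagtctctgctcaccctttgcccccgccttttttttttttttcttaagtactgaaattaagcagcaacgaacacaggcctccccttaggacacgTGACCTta
The match began 215, 73, 97 and 8 bases before the start of Col23a1, Ddc, Ccnd3 and Arhgap15, and in Ddc, Ccnd3 and Arhgap15 a second annotated start had none. The 4 lower genes in the table (Pcolce2, Tmem117, Dpyd and Etv1) had no match in any window, as in these examples:
Dpyd, chr3:118561930-118562179, plus strand: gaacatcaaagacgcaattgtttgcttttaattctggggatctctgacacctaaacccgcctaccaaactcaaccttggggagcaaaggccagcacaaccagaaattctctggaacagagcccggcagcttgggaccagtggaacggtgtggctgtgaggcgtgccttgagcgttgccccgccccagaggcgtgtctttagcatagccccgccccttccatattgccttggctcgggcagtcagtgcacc
Pcolce2, chr9:95637378-95637627, plus strand: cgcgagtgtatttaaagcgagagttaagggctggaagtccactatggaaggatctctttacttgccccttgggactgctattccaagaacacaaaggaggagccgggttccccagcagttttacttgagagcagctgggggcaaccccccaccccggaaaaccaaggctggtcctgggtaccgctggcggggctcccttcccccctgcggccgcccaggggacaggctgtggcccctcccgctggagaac
A match stood in 12.3% of the 9770 tested genes with an entry (any of their windows) and in 14.02% of all 32851 windows. Among genes called with the repeat as a block, 27 of 197 higher genes (13.7%) and 35 of 214 lower genes (16.4%) held one. The matches are a description of these letters and not of receptor binding, which was not measured.

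For shares of nuclei, each nucleus was thinned to 900 UMIs, the minimum of the deposited data, which left out none. A UMI of any of the 8 lower genes was found in 63.7% and 69.2% of wild-type nuclei, against 14.1% and 12.5% in the mutant. For the 5 higher genes the shares were 15.2% and 15.0% in wild type, against 55.8% and 60.5% in the mutant. In microglia and macrophages the shares were 21.1%, 19.7%, 19.7% and 19.6% for the lower set and 40.0%, 35.7%, 42.6% and 41.8% for the higher set; their median depths were 1375.5, 1617.5, 1367 and 1391.5 UMIs before thinning. That cluster is not free of every gene of the sets (Ccnd3 alone was found in 26.3% to 34.2% of its nuclei, and Dpyd in 5.77% to 9.44%), so that its shares are no measure of background for the sets.

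Of the single genes, Tmem117 was found in 21.5% and 25.3% of thinned wild-type nuclei, and in 1.96% and 2.34% in the mutant, against 1.58% to 3.06% in microglia; in whole oligodendrocyte nuclei the shares were 32.6%, 44.1%, 3.74% and 4.39%. Ddc was found in 3.84% and 3.44% in wild type, and in 18.5% and 21.3% in the mutant, against 1.21% to 2.55% in microglia. Whole nuclei gave 6.95%, 7.95%, 29.0% and 34.6% for Ddc. UMIs of both sets stood in the same nucleus in 9.81% and 9.46% of nuclei in wild type, and in 7.06% and 6.86% in the mutant.

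**Figure D3:**
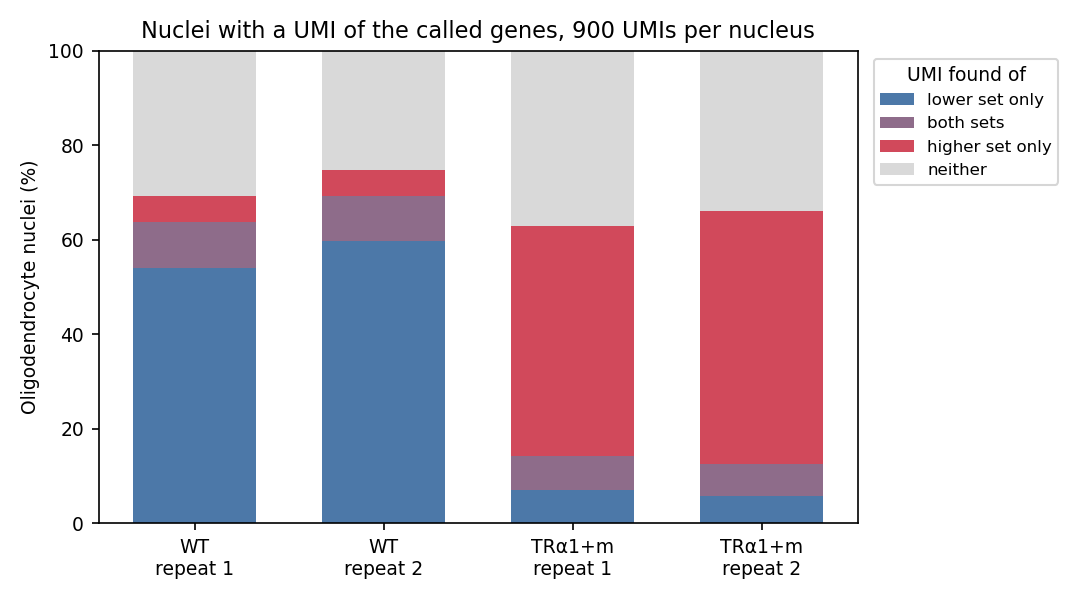
Share of oligodendrocyte nuclei (vertical axis, percent; nuclei thinned to 900 UMIs) with a UMI of the 8 genes called lower only, of both sets, of the 5 genes called higher only, or of neither, in each of the 4 libraries (horizontal axis). The lower set alone fills 53.9% and 59.7% of wild-type bars and 7.06% and 5.66% of mutant bars, and the higher set alone 5.42% and 5.59% against 48.8% and 53.6%.

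Mature oligodendrocytes are known to include nuclei rich in Hapln2, a perinodal matrix linker, and nuclei rich in Il33, an interleukin stored in the nucleus. Hapln2 was at 224 and 258 CPM in wild type and at 103 and 167 CPM in TRα1+m (log2 fold change -0.83 ± 0.26, adjusted p = 0.633, 3.11e-05 with the block). Il33 was at 257 and 293 CPM against 342 and 469 CPM (0.56 ± 0.21, adjusted p = 0.852, 0.0225 with the block). Neither was called without the block. In whole nuclei, whose depth differs between libraries, those with a Hapln2 UMI and no Il33 UMI made up 20.2% and 23.1% of nuclei in wild type, against 10.5% and 12.5% in the mutant, and nuclei with Il33 and no Hapln2 made up 20.6% and 25.1% against 31.9% and 38.4%. At 900 UMIs per nucleus the shares with Hapln2 alone were 15.7% and 16.1% in wild type and 7.42% and 8.42% in the mutant. Those with Il33 alone were 15.7% and 18.2% against 23.1% and 28.4%. In microglia at this depth the shares were 0.592% to 1.21% and 4.59% to 5.10%. The called genes were then read within each kind of whole nucleus. All 13 kept their direction without overlap between genotypes in both kinds, although some on very few UMIs. The 13 were called on sums that include these nuclei, so this was largely given and is no independent support. Cacna2d4 had 7 and 8 UMIs in wild type and 1 and 0 in the mutant among nuclei with Hapln2, and Pcolce2 had 43 and 87 against 2 and 1. Tmem117 was at 365 and 471 CPM in wild type and at 67.5 and 78.8 CPM in TRα1+m among the nuclei with Hapln2, and at 235 and 315 CPM against 14.5 and 14.7 CPM among those with Il33. These levels per kind of nucleus are without TMM scaling, rest on the same libraries and carry no test.

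The genotype differences were compared with those of OPCs, astrocytes and Neurons_1 in 1 model per pair of cell types, with a term for the difference and the library as a block. None of these 3 cell types had a gene past the threshold in its own edgeR fit, which was made only without the repeat as a block. An unadjusted p under 0.05 was found for 185 of 11248, 312 of 14072 and 193 of 19926 genes tested. These fits do not show that the 3 cell types lack genotype differences. The effect in oligodendrocytes differed from that in OPCs for 53 of 13152 genes (0.403%), from that in astrocytes for 67 of 14259 (0.47%) and from that in Neurons_1 for 34 of 18720 (0.182%). Of the 13 called genes, 11 differed from OPCs, 8 from astrocytes and 11 from Neurons_1. These genes were chosen for their effect in the same oligodendrocyte libraries, which favours such differences. With the repeat as a block the genes that differed numbered 263, 360 and 352. Without a term for the library they numbered 3, 5 and 6. Leaving out a library also moved the counts against all 3 cell types, as given under the processing.

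Dpyd showed the contrast with its precursors. In OPCs it was abundant, at 946 and 881 CPM in wild type and 860 and 866 CPM in TRα1+m, and the log2 effect in oligodendrocytes minus that in OPCs was -2.85 ± 0.22 (adjusted p = 1.24e-05). Tmem117 was at 211 and 211 CPM against 160 and 188 CPM in OPCs (difference -3.08 ± 0.20, adjusted p = 2.21e-06). Etv1 was at 179 and 136 CPM against 202 and 122 CPM (difference -2.13 ± 0.24, adjusted p = 0.000663). These 3 genes were thus present in OPCs of both genotypes.

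Col23a1 had higher values in the mutant in the other cell types as well, none of them called. In OPCs it was at 15.7 and 5.30 CPM against 31.1 and 24.6 CPM, and in astrocytes at 30.6 and 54.4 CPM against 78.3 and 107 CPM; its rise in oligodendrocytes was larger by 2.51 ± 0.45 (adjusted p = 0.0245) and 2.82 ± 0.25 (adjusted p = 0.00021) on the log2 scale. Ddc was at 45.4 and 40.7 CPM against 41.0 and 42.4 CPM in Neurons_1 (difference 2.44 ± 0.17, adjusted p = 0.000149). Ccnd3 was at 186 and 161 CPM against 188 and 198 CPM in astrocytes (difference 2.45 ± 0.17, adjusted p = 2.09e-05). In wild type Ccnd3 was thus lower in oligodendrocytes than in astrocytes, and in TRα1+m it was higher, on levels scaled within each cell type. Gm44866 was not called against any of the 3 cell types, in which it was at or near 0. Other called genes also shifted in OPCs as in oligodendrocytes, without overlap and not called. Slco3a1 was at 105 and 98.5 CPM against 78.7 and 72.3 CPM there, and Fbn2 at 123 and 125 CPM against 168 and 153 CPM. Ccnd3 and Kcna1 did likewise, whereas Pcolce2, Ddc, Arhgap15, Etv1 and Cacna2d4 overlapped in OPCs. In Neurons_1 Tmem117 was at 165 and 168 CPM against 132 and 137 CPM.

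**Figure D4:**
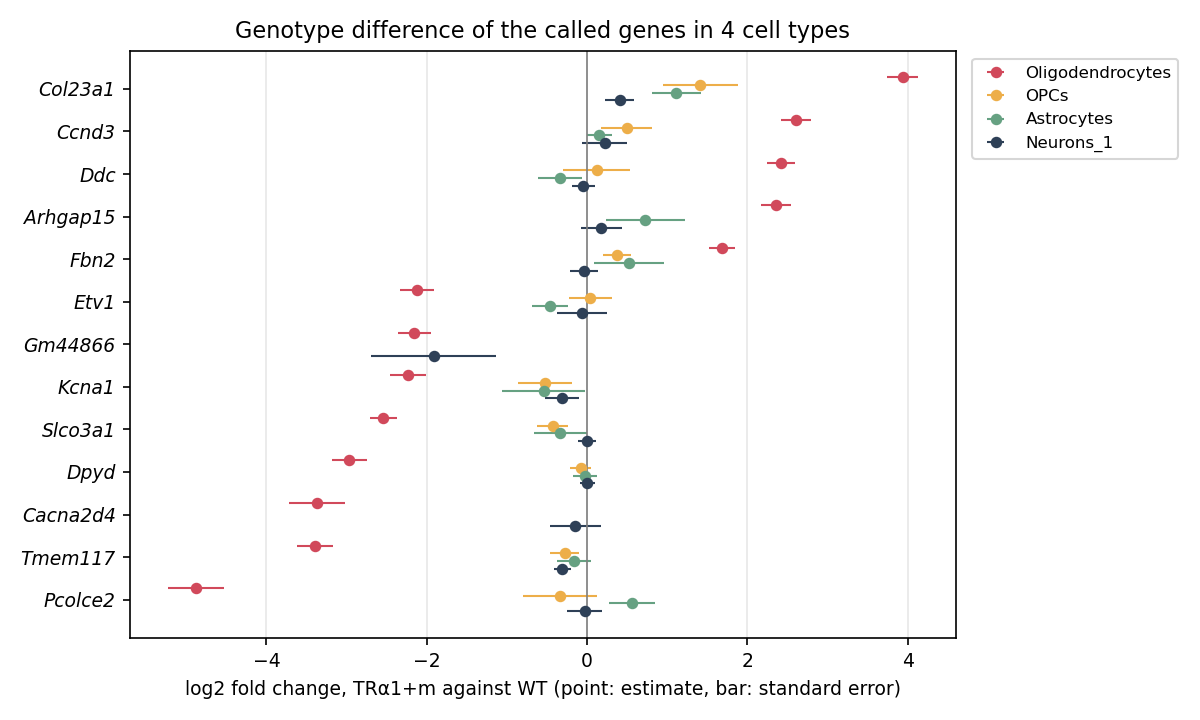
log2 fold change of TRα1+m against wild type (horizontal axis; points are estimates, bars standard errors) of the 13 called genes in oligodendrocytes, OPCs, astrocytes and Neurons_1, each from its own fit; a point is missing where the gene was too low to be tested. Oligodendrocytes reach from -4.88 for Pcolce2 to 3.94 for Col23a1, whereas the estimates of the other cell types lie between -0.54 and 1.41 apart from Gm44866 in Neurons_1 at -1.91.

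In all 3 comparisons, which share the oligodendrocyte libraries, 18 genes differed. Of these, 7 were called in oligodendrocytes (Pcolce2, Tmem117, Dpyd, Slco3a1, Etv1, Ddc and Col23a1). The other 11 were chosen by this overlap: Tbc1d4, 4930445B16Rik, Lrp4, Pcyt1b, Kctd3, Gab2, Dennd2a, Kif13b and Dock9, with lower values in the mutant, and Grid1 and Myrip, with higher values. Kif13b, a kinesin motor, was at 609 and 549 CPM in wild type and at 223 and 259 CPM in the mutant (log2 fold change -1.27 ± 0.17, adjusted p = 0.115, 2.22e-09 with the block). Gab2, a docking protein of growth factor receptors, was at 163 and 168 CPM against 54.7 and 60.2 CPM (-1.53 ± 0.16, adjusted p = 0.0587, 7.70e-13 with the block). Neither overlapped between genotypes, and neither was called in oligodendrocytes alone without the block.

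None of 26 structural genes of myelin passed between genotypes without the block. Their median log2 fold change was 0.18 beside 0.01 over all genes tested; over 14 alternative fits this median ran from -0.60 to 0.69, so it had no stable sign. Mbp was at 2152 and 2149 CPM in wild type and at 2099 and 2695 CPM in TRα1+m (log2 fold change 0.16 ± 0.16). With the block, Gal3st1 and Nfasc were among the higher genes and Pllp was lower (from 94.1 and 353 CPM to 42.2 and 191 CPM, adjusted p = 2.17e-06 with the block). The oligodendrocyte markers Mag, Mobp and Mog had log2 fold changes of 0.19, 0.13 and -0.02.

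Of 23 genes of the mature state none was called, and with the block Il33 and Gsn were higher and Hapln2, Ptgds, Dock5 and Pmp22 lower (over all genes tested, 2.14% were higher and 2.22% lower with the block, which holds for each list below). Pmp22, a membrane protein of peripheral myelin, was at 38.7 and 118 CPM in wild type and at 8.29 and 37.5 CPM in the mutant (log2 fold change -1.79 ± 0.82, adjusted p = 0.999, 1.4e-11 with the block). Gsn, the actin-severing gelsolin, was at 94.9 and 230 CPM against 173 and 659 CPM (1.35 ± 0.74, adjusted p = 0.999, 2.45e-08 with the block). Within each repeat Pmp22 was lower and Gsn higher in the mutant, on top of a repeat difference of similar size. Of 17 genes of newly formed oligodendrocytes none was called; with the block Enpp6 and Tns3 were higher, and the median log2 fold change was -0.03, with no stable sign over the alternative fits (-0.25 to 0.25). Of 20 transcription factors of the lineage only Zfp488 passed with the block (6.59 and 7.12 against 13.2 and 18.2 CPM), while Olig2, Sox10 and Myrf had log2 fold changes of 0.18, -0.04 and 0.27 with adjusted p of 0.999 each.

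No gene of the thyroid hormone pathway was called without the block. The transcript that carries the mutation, Thra (ENSMUSG00000058756, chr11:98740638-98769006), was at 255 and 271 CPM in wild type and at 204 and 226 CPM in TRα1+m (log2 fold change -0.29 ± 0.17, adjusted p = 0.999). A point mutation is not seen in gene counts, so this level does not check the labels. Of the 13 called genes, 2 (Col23a1 and Ddc) lie on the same chromosome as Thra. Thrb, the other receptor gene, was at 65.9 and 58.4 CPM in wild type and at 35.1 and 24.8 CPM in the mutant (-1.05 ± 0.24, adjusted p = 0.323, 2.47e-05 with the block). Among 13 receptors and cofactors it alone passed with the block, and the corepressor Ncor1 and coactivator Ncoa1 had log2 fold changes of 0.06 and 0.02. Of 4 testable genes of hormone transport and metabolism none was called in either fit, and Slco1c1, Slc7a8 and Crym were at most 12.1 CPM in every library; Dio3 had no UMI in any library, and Dio2 was at most 1.78 CPM.

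Of 18 genes known to respond to thyroid hormone in brain none was called without the block, and with it Klf9, Aldh1a1, Sgk1 and Ptgds were lower and none was higher, beside 2.22% and 2.14% of all genes tested. Klf9, a Krüppel-like factor induced by the hormone, was at 112 and 112 CPM in wild type and at 76.5 and 79.2 CPM in TRα1+m (log2 fold change -0.52 ± 0.16, adjusted p = 0.595, 0.0284 with the block). Aldh1a1, a retinaldehyde dehydrogenase, was at 47.7 and 57.7 CPM against 27.5 and 20.6 CPM (-1.13 ± 0.24, adjusted p = 0.276, 3.01e-05 with the block). Sgk1, a kinase that glucocorticoids also induce, was at 77.5 and 122 CPM against 34.7 and 55.7 CPM (-1.15 ± 0.32, adjusted p = 0.509, 1.86e-07 with the block). In 8 of the 18 both mutant libraries lay below both wild-type libraries, and in 1 above; over all genes tested the shares were 16% and 15.9%. The list's median log2 fold change was -0.25 and stayed below 0 in all 14 alternative fits (-0.42 to -0.16).

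Of 33 genes of cholesterol and lipid synthesis tested, 29 had a negative log2 fold change, with a median of -0.39 beside 0.01 over all genes, and 24 were lower in both repeats, as were 28.6% of all genes tested. The median stayed between -0.56 and -0.18 in the 14 alternative fits. None passed without the block; with it 7 were lower, among them Hmgcs1, Msmo1, Insig1, Scd1 and Elovl5, and Apoe was higher, beside 2.22% lower and 2.14% higher of all genes tested. Scd1, which desaturates fatty acids, was at 77.5 and 117 CPM in wild type and at 42.6 and 21.9 CPM in TRα1+m (log2 fold change -1.59 ± 0.36, adjusted p = 0.328, 0.00660 with the block). Msmo1, an enzyme of sterol synthesis, was at 103 and 130 CPM against 74.3 and 74.7 CPM (-0.64 ± 0.18, adjusted p = 0.530, 0.00406 with the block). Neither gene overlapped between genotypes, as was true of 15 of the 33 in this direction, beside 16% of all genes tested. Apoe, the lipid carrier, went the other way, from 2038 and 2084 CPM to 3211 and 4983 CPM (0.99 ± 0.22, adjusted p = 0.296, 3.07e-05 with the block); it is an astrocyte transcript as well, and astrocyte markers are given below.

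**Figure D5:**
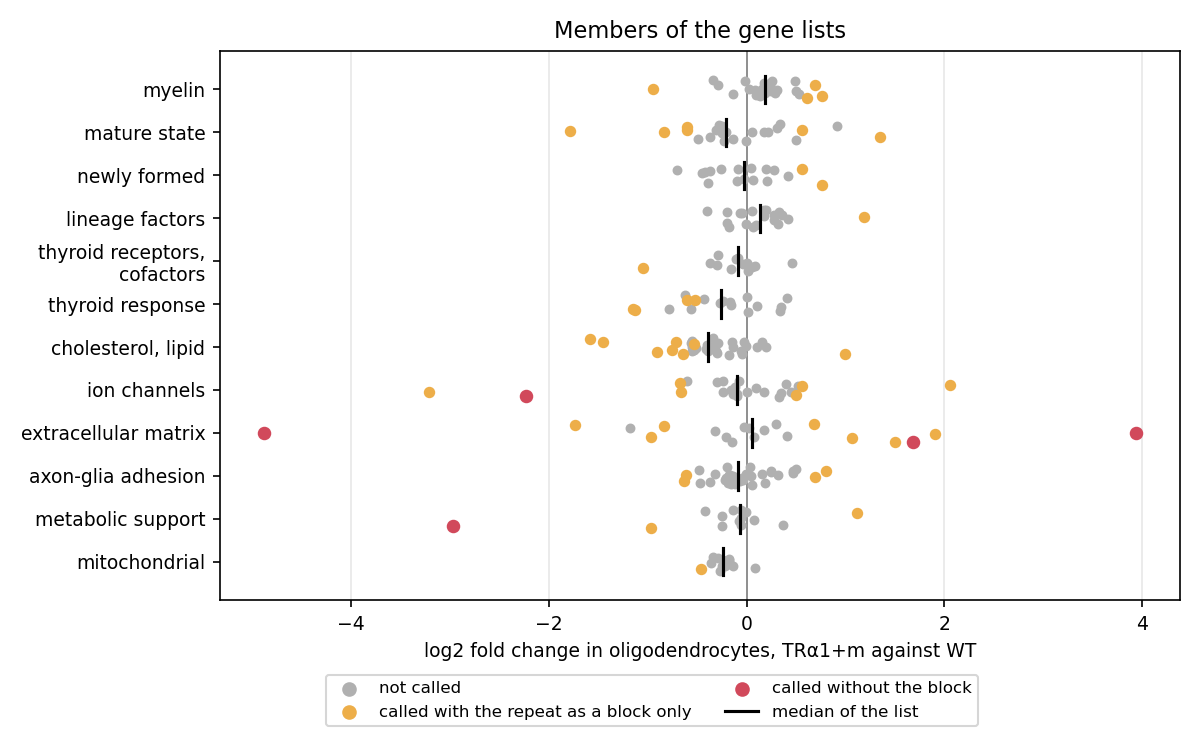
log2 fold change of TRα1+m against wild type in oligodendrocytes (horizontal axis) for the members of 12 gene lists (vertical axis); red points passed without the repeat as a block, yellow points only with it, grey points in neither, and black bars are list medians. The list of cholesterol and lipid genes has its median at -0.39 and 29 of 33 points below 0, while the red points sit among ion channels (Kcna1), extracellular matrix (Pcolce2, Fbn2, Col23a1) and metabolic support (Dpyd).

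Of 20 extracellular matrix genes tested, Col23a1 and Fbn2 were called higher and Pcolce2 lower, with a list median of 0.05 on the log2 scale that ran from -0.51 without TRα1+m repeat 1 to 0.39 without TRα1+m repeat 2. With the block 6 were higher and 4 lower, beside 2.14% and 2.22% of all genes tested. Lama2, a laminin chain of the basement membrane, was at 271 and 265 CPM in wild type and at 127 and 146 CPM in TRα1+m (log2 fold change -0.97 ± 0.17, adjusted p = 0.187, 1.89e-06 with the block). Of 25 ion channel and pump genes Kcna1 was called; with the block Clic4, Kcna6 and Piezo2 were higher and Hcn2, Kcna1, Kcnj10 and Cacna1a lower, beside the same 2.14% and 2.22%. Kcnj10, the inward rectifier that buffers potassium along axons, was at 137 and 129 CPM against 85.9 and 80.4 CPM (-0.67 ± 0.16, adjusted p = 0.342, 0.00146 with the block). None of 34 genes of axon-glia adhesion was called; with the block Cadm1 and Nfasc were higher and Nectin1 and Sema4d lower. Cadm1, an adhesion molecule of the axon-glia contact, was at 441 and 377 CPM against 738 and 691 CPM (0.81 ± 0.17, adjusted p = 0.254, 0.000133 with the block).

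Of 14 genes of metabolic support Dpyd was called, and with the block Glul was lower and Gpd1 higher. Glul, glutamine synthetase, was at 309 and 373 CPM in wild type and at 221 and 128 CPM in the mutant (log2 fold change -0.96 ± 0.28, adjusted p = 0.553, 9.30e-05 with the block). Of 9 genes of cell-cycle exit Ccnd3 was called and was the only gene to pass with the block. Of 12 genes that the study named in oligodendrocytes, chosen on these same samples and so no independent evidence, Dpyd, Slco3a1 and Tmem117 were called, and Hcn2 and Arsg were also lower with the block.

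Markers of other cell types were read in the same nuclei; whether their UMIs came from free RNA or from the nuclei themselves was not tested. The summed level of 12 neuronal markers was 2628 and 2586 CPM in wild type and 2787 and 2364 CPM in TRα1+m, with Meg3 the most abundant (614, 567, 681 and 493 CPM), and 1 of the 12 tested (Kcnq1ot1, with the block) differed. The 7 astrocyte markers summed to 862, 674, 1211 and 668 CPM, with Slc1a2 the most abundant (331, 271, 415 and 222 CPM); with the block Slc1a3 and Gfap were higher in the mutant. Of 8 microglial markers none was called in either fit (sums 168, 111, 222 and 115 CPM), nor of the 6 testable vascular markers (sums 44.6, 49.1, 74.3 and 28.5 CPM). The tanycyte and ependymal list was led by Nnat (505, 407, 609 and 388 CPM), and its called member was Col23a1. Of 10 OPC markers Pcdh15 alone was lower with the block, at 367 and 417 CPM against 221 and 220 CPM. Schwann cell markers were near 0 (sums of 1.16 to 4.95 CPM, Pmp2 with no UMI). Of 10 neuropeptide genes Oxt and Cartpt were lower with the block. Astrocyte, microglial and vascular markers were highest in TRα1+m repeat 1, and their part in the genotype differences was not tested. Without the 25% of nuclei of each library with most neuronal UMIs, an alternative added after the data were seen, 12 genes were called, 11 of them among the 13.

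Some nuclear RNAs passed with the block only. Malat1 took 58896 and 28985 CPM in wild type and 96949 and 73565 CPM in TRα1+m (log2 fold change 0.96 ± 0.36, adjusted p = 0.906, 0.000159 with the block). Neat1, the scaffold of paraspeckles, was at 604 and 665 CPM against 153 and 261 CPM (-1.62 ± 0.27, adjusted p = 0.186, 3.47e-13 with the block). Both mutant libraries were higher in Malat1 and lower in Neat1 than both wild-type libraries. Of the 7 genes of this list tested, Kcnq1ot1 was the third to pass with the block. Mitochondrial transcripts took 2.31% and 2.44% of the UMIs in wild type, against 1.97% and 1.79% in the mutant; of 13 mitochondrially encoded genes 12 were lower in both repeats, beside 28.6% of all genes tested (median log2 fold change -0.24) and mt-Nd4l passed with the block. Whether these shares bear on the called genes was not tested. Of 7 immediate-early genes none was called in either fit, and of 10 stress and glucocorticoid genes Sgk1 alone passed with the block.

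Genes typical of the cluster were ranked, as a description, by their level relative to the highest of OPCs, astrocytes, Neurons_1 and microglia, at a mean of at least 50 CPM. Of 3905 genes considered, Gm48370 led, followed by Gm44866, Fbxw15 and Prr5l, whose lowest ratios over the libraries were 28.4, 26.4 and 25.3. Prr5l, a partner of the kinase complex mTORC2, was also the most abundant of the 10, at 2163 and 2378 CPM in wild type and 1749 and 2176 CPM in TRα1+m before TMM scaling. Gm44866 was the only gene among the 10 that was called between genotypes. By variance over mean in nuclei thinned to 900 UMIs, the most uneven of 3589 genes were Malat1, Pcdh9, Kirrel3 and Ptgds, with ratios of at least 3.28, 2.77, 2.70 and 2.39 in every library beside a median of 0.996. Kirrel3, an adhesion molecule, was at 745 and 952 CPM in wild type and at 1450.0 and 1752 CPM in the mutant (log2 fold change 0.92 ± 0.19, adjusted p = 0.254, 1.82e-05 with the block).

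The number of oligodendrocyte nuclei per OPC nucleus was 3.09 and 3.31 in wild type and 2.48 and 2.96 in TRα1+m. The libraries did not overlap, and the log2 difference was -0.24 (exact two-sided permutation test over libraries, p = 0.333, the smallest that 2 against 2 libraries can give). Within repeat 1 the difference was -0.32 and within repeat 2 it was -0.16. Oligodendrocytes made up 11.2% and 10.5% of annotated nuclei in wild type and 10.3% and 11.8% in TRα1+m, which overlapped. OPCs made up 3.62% and 3.17% in wild type and 4.13% and 3.99% in the mutant, where both libraries were higher. Such shares count nuclei recovered and annotated.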

How the data were processed

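Per the labels and the methods, reads were counted with Cell Ranger 5.0.1 on mm10 with introns included, and the authors kept nuclei with at least 900 counts, 700 features, at most 5% mitochondrial reads and a scrublet doublet score below 0.18, and clustered them in Seurat. The deposited matrices hold raw UMI counts, and the deposited annotation gives each nucleus its library and cluster; doublets were not called again. Here UMIs of oligodendrocyte nuclei were summed per library and tested in edgeR 4.0.16 (R 4.3.3; filterByExpr, TMM, robust quasi-likelihood F-test, adjusted p of 0.05, two-sided). SE is the absolute log2 fold change over the square root of F. Both models were first tested on simulated counts, which held no difference between repeats. The genotype fit recovered 24% of changes of 1 on the log2 scale and 99% of changes of 2. The model of the difference from OPCs recovered 5% and 69%. A gene that was not called may therefore still differ.

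The repeats pair the libraries: the methods give each repeat a library of each genotype, and the difference between repeats correlated between genotypes (Pearson r 0.689, across 7361 genes, which are not independent). Genes named were those called, then those with an unadjusted p under 0.05, at least 20 CPM and no overlap, by log2 fold change, up to 24, and members of 27 gene lists. A few list members count in the list totals and are not reported here by name. Members and lists were chosen with earlier results of these data known. The p-values set a difference against the spread between pools of mice, with the variance of each gene estimated partly from all genes. With the repeat as a block 1 residual degree of freedom is left per gene. Those p-values therefore lean on variance shared over genes and say little about the spread of a single gene. Gene positions are from GENCODE vM21 (GRCm38, all 24 named genes matched), the build of mm10. Alternatives used DESeq2 1.42.0, RLE factors, a bias-adjusted fit, no filter, the repeat as a block, each library left out, subsets of nuclei, and a rank sum comparison of nuclei as in the study; 2 were added after the data were seen.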

Additional observations from a re-analysis of the deposited data

Results flagged for a closer look

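The genotype effect differed between cell types by a direct test of the difference: 53 genes between oligodendrocytes and OPCs, 67 between oligodendrocytes and astrocytes and 34 between oligodendrocytes and Neurons_1 passed an adjusted p of 0.05 in edgeR. Without a term for the library these counts were 3, 5 and 6. They also moved when a library was left out, as given under the processing.

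Of the 13 called genes, 11 had a different effect in oligodendrocytes than in OPCs, beside 0.403% of all genes tested. They were chosen for their effect in the same oligodendrocyte libraries, which favours such a difference. Without a term for the library 3 of the 13 passed. The log2 effect was lower in oligodendrocytes, with differences of -4.50 for Pcolce2, -3.08 for Tmem117, -2.85 for Dpyd, -2.13 for Etv1, -2.09 for Slco3a1 and -1.67 for Kcna1. It was higher for Arhgap15, Col23a1, Ddc, Ccnd3 and Fbn2, with differences of 2.78, 2.51, 2.31, 2.12 and 1.34. Groups of 2 libraries were too small to screen for single outlying libraries.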

How the results depend on the processing

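Most counts of called genes depended on the fit. The 13 called genes kept their direction in every alternative in which they were tested, which follows largely from their choice on these same libraries. In nuclei with under 2 neuronal UMIs the log2 fold change moved to -4.17 for Tmem117, 3.25 for Col23a1 and -2.80 for Gm44866. Of the genes described that missed the threshold, it was 2.02 for Myrip, -3.08 for A530053G22Rik, 2.74 for 1700042O10Rik and -3.35 for Hcn2. The rest of those genes had no value there. Against 13 genes between genotypes, RLE factors and the bias-adjusted fit gave 13 each, 1396 nuclei per library gave 12 and leaving out the 25% of nuclei with most neuronal UMIs gave 12. DESeq2 gave 72, no filter on low counts 120, the replicate block 550, nuclei with 2 or more markers 26, nuclei with under 2 neuronal UMIs 7 of 4728 genes tested (5 of the 13 among them, with 2 of the 13 not tested), DESeq2 with the replicate block 143 and a rank sum comparison of single nuclei 99, in which nuclei of a library are treated as replicates although they are not. Leaving out a library gave 0 to 196. With the block all 13 remained called, and no call among them was lost.

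For the differences from OPCs, astrocytes and Neurons_1 (53, 67 and 34 genes), no filter gave 127, 246 and 147, the replicate block 263, 360 and 352, and the fit without the library term 3, 5 and 6. The bias-adjusted fit gave 37 for astrocytes and 13 for Neurons_1. Leaving out a library gave 45 to 87 for OPCs, 5 to 144 for astrocytes and 18 to 123 for Neurons_1. The number of oligodendrocyte nuclei per OPC nucleus differed by -0.37 to -0.11 with a library left out, and by -0.32 and -0.16 within the paired repeats 1 and 2. Shares of nuclei with a UMI of a called gene kept their direction in whole nuclei and at 600 UMIs, and their size followed the depth. A fit with a library left out assumes that the lone library varies like the other group. At these depths sparse genes such as Cacna2d4 rest on as few as 5 UMIs in a library, and the causes of the changes in the counts were not tested.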
